A study of Zea mays with 9 samples.

Results

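Maize seedlings with 2 copies of the P1-ww714 allele were compared with seedlings that had 1 copy, across every gene counted. The comparison uses 6 of the 9 libraries of the study, which were the 3 of genotype P1-ww714 and the 3 of the heterozygote P1-ww714/B73. The B73 libraries, also 3, entered the same model and are quoted only where their level helps. All plants were 14 days old and were grown with 15 h of light each day and 9 h of darkness, and no other treatment is named. Total RNA came from seedlings, and the labels do not say whether each sample was a separate plant or a pool, so p-values measure the spread between samples, which may be technical. The label P1-ww714 does not itself say that the allele is homozygous, and it is read here as 2 alleles.

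B73 is the inbred line of the maize reference genome. P1-ww714 is an allele of p1, which encodes a MYB transcription factor that switches on red phlobaphene pigments in the ear and cob. Background knowledge of the study, not stated in the labels, is that this allele carries a tandem duplication of a piece of chromosome 1 with 1 end at p1, which gives 4 doses of that piece in P1-ww714, 3 in the heterozygote and 2 in B73. When a chromosome piece is present in extra copies, transcripts of its genes can follow the number of copies, stay level, or move the other way, and genes elsewhere can respond to regulators that the piece contains. A step of 3 to 4 copies with transcripts in proportion corresponds to a 1.33-fold difference, or 0.42 on the log2 scale. In bulk seedlings fewer cells of a type and less RNA per cell cannot be told apart.

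Library totals ran from 9486044 to 16189684 counts, and 22544 genes passed the expression filter. The mean correlation of each library with the other 8 was 0.983, 0.984 and 0.978 in P1-ww714 and 0.969, 0.984 and 0.981 in the heterozygote, so heterozygote replicate 1 stood farthest apart. Transcripts of mesophyll cells (pep1, mdh6 and pdk1) and of bundle sheath cells (me3, rbcs1, rca1 and rca3) of the C4 leaf were present in every library. None of the 25 listed endosperm storage protein genes passed the filter. Counts of p1 itself (GRMZM2G084799) were 4, 4 and 11 in P1-ww714 and 2, 1 and 1 in the heterozygote. B73 had 1, 0 and 1. With 25 counts in all it was not tested and gives no check of the labels at this depth.

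No gene passed the quasi-likelihood test of edgeR after Benjamini-Hochberg adjustment, which is 0.0% of those tested, and the lowest adjusted p was 0.228, shared by 6 genes. Without adjustment 680 genes had p under 0.05, of which 392 (1.74%) were higher and 288 (1.28%) lower in P1-ww714. That balance rested on single libraries. It was 366 higher and 495 lower without heterozygote replicate 3, 556 higher and 231 lower without heterozygote replicate 1, and 280 higher and 268 lower without P1-ww714 replicate 3. DESeq2 called 27 genes, 15 higher (0.0666%) and 12 lower (0.0532%), and limma voom with sample weights called 1, which was lower. All 3 libraries of P1-ww714 lay above all 3 of the heterozygote for 841 genes (3.73%) and below them for 688 (3.05%). Over all tested genes the median log2 fold was 0.01, and 52.0% of genes had a fold above 0. The words higher and lower below therefore compare measured levels, and no single gene is said to have changed on the edgeR test.

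The clearest feature of the comparison was a segment of neighbouring genes on chromosome 1. It was defined as the contiguous run of tested genes with the highest excess in P1-ww714 over B73, bounded on genes at even positions, and it holds 131 tested genes beginning 2 genes before p1. Because the bounds used the P1-ww714 libraries, the values of these genes are a description. The 65 genes at odd positions did not set the bounds. Their median log2 fold for P1-ww714 over the heterozygote was 0.41, which is 1.33-fold, with quartiles at 0.27 and 0.50, and 62 of the 65 lay above 0. When the bounds were set instead on the heterozygote against B73, which shares the heterozygote libraries rather than those of P1-ww714, the run held 43 genes, all inside the same segment. The 21 of these that had not set its bounds had a median of 0.42, and all 21 lay above 0. The same search on P1-ww714 against the heterozygote found a run of only 7 genes, all inside the segment. That search takes 0.5 from each log2 fold, which is more than 0.42.

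**Figure D1:**
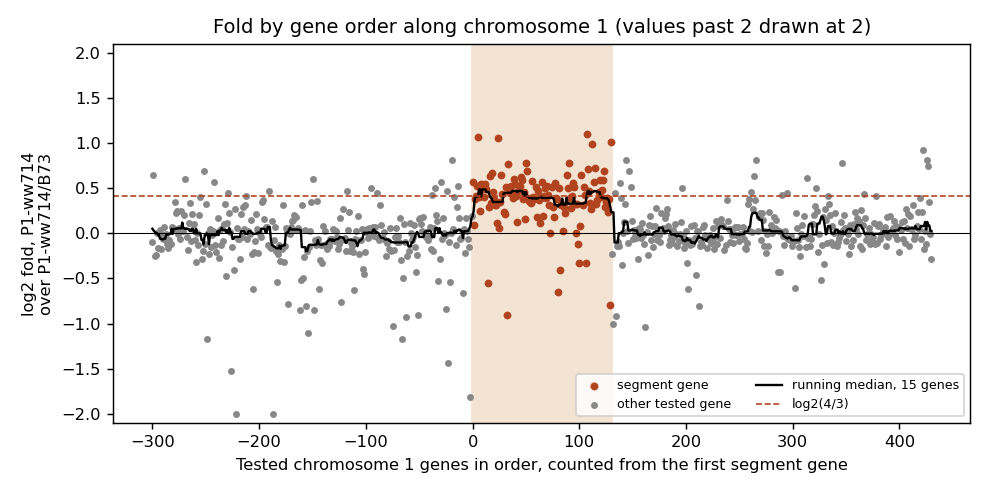
Log2 fold of P1-ww714 over P1-ww714/B73 (y axis) for tested chromosome 1 genes in their order on the reference assembly (x axis, counted from the first gene of the segment), with the 131 segment genes in red on a shaded band and the 300 tested genes on either side in grey. The black running median over 15 genes lies near the dashed line at 0.42, the log2 of 4/3, inside the band and near 0 outside it, and more grey points fall well below 0 on the left than on the right.

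Over all 131 genes of the segment the median log2 fold was 0.40, with 122 genes above 0 and 9 below. Unadjusted p-values were under 0.05 for 83 higher genes, which is 63.4% of the segment against 1.74% of all tested genes. They were under 0.05 also for 4 lower genes (3.05%, against 1.28% of all tested genes). The libraries of the 2 genotypes did not overlap for 88 higher genes (67.2%, against 3.73% of all tested genes) and 3 lower ones (2.29%, against 3.05%). DESeq2 called 10 of the 131 higher and 1 lower, where it called 0.0666% higher and 0.0532% lower over all genes. The excess was spread along the segment. Cut into 4 equal stretches in gene order, it had medians of 0.41, 0.45, 0.39 and 0.40. The median standard error of a single gene was 0.15, so most genes could be placed only roughly. The 95% interval held 0.42 but not 0 for 80 genes, held both for 33 and held 0 but not 0.42 for 11. It lay wholly above 0.42 for 3 genes and wholly below 0 for 4.

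Summed over the segment, its 131 genes took 1.04%, 1.02% and 1.01% of the counts of tested genes in the P1-ww714 libraries and 0.773%, 0.812% and 0.806% in the heterozygote libraries. The 2 genotypes did not overlap, and each P1-ww714 library was above each heterozygote library. Group means were 1.02% ± 0.0136 in P1-ww714 and 0.797% ± 0.0209 in the heterozygote (SD, n = 3 each). B73 took 0.583% ± 0.00316 (SD, n = 3). After TMM scaling, the sums of 10274.8 ± 258 CPM in P1-ww714 and 8097.1 ± 229 CPM in the heterozygote (SD, n = 3 each), where CPM is a scaled share of each library's counts, differed 1.27-fold, and the heterozygote stood 1.42-fold above B73.

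**Figure D2:**
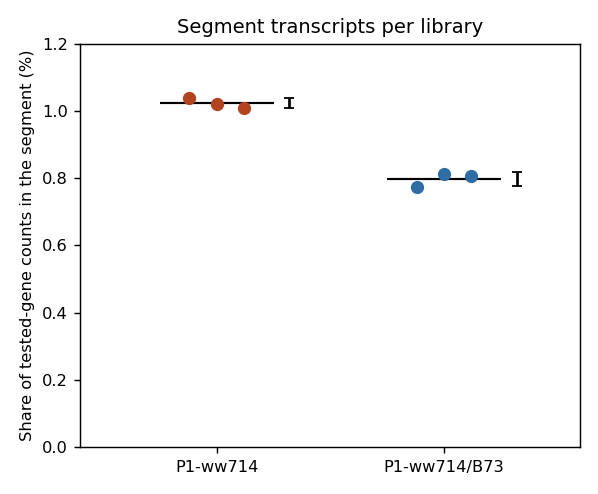
Share of the counts of tested genes taken by the 131 segment genes (y axis, percent, from 0) in each library of P1-ww714 and of P1-ww714/B73 (x axis), with a line at the mean and a bar of 1 SD. The 3 P1-ww714 libraries lie between 1.01% and 1.04%, all above the 3 heterozygote libraries at 0.773% to 0.812%.

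Genes of the segment with a symbol numbered 19, and 17 of them were measured higher in P1-ww714. Among those that handle reactive oxygen, sod4 (GRMZM2G169890), a cytosolic copper/zinc superoxide dismutase, had 266.6, 237.4 and 284.7 CPM in P1-ww714, against 162.1, 174.9 and 166.4 CPM in the heterozygote. The lowest P1-ww714 library was above the highest heterozygote library. Its log2 fold was 0.65 with a standard error of 0.11, and DESeq2 gave an adjusted p of 0.000337. MSRB5.1 (GRMZM2G577677), a methionine sulfoxide reductase that repairs oxidised proteins, had 132.8, 121.3 and 141.6 CPM in P1-ww714, against 108.1, 97.0 and 99.4 CPM in the heterozygote. These groups did not overlap either, and the log2 fold was 0.38 ± 0.10 (SE).

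Among genes of signalling, PhyB1 (GRMZM2G124532), a phytochrome that senses red and far-red light, had 134.8, 135.8 and 140.0 CPM in P1-ww714 and 108.3, 102.3 and 99.6 CPM in the heterozygote. Its groups were tight and well separated, with a log2 fold of 0.40 ± 0.10 (SE). CaM1 (GRMZM2G152891), a calmodulin that relays calcium signals, had 237.2, 227.2 and 248.8 CPM in P1-ww714 and 159.3, 185.1 and 181.0 CPM in the heterozygote, a log2 fold of 0.44 ± 0.11 (SE). The kinase gene cipk31 (GRMZM2G174896), whose family acts with calcineurin B-like calcium sensors, averaged 477.3 ± 11.5 CPM in P1-ww714 and 406.1 ± 12.2 CPM in the heterozygote (SD, n = 3 each). Its libraries did not overlap, but its log2 fold of 0.23 had an interval of -0.07 to 0.54, which holds both 0 and 0.42.

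Among genes of transport, HAK8 (GRMZM2G173387), a potassium transporter, had 139.7, 123.4 and 145.4 CPM in P1-ww714 and 88.0, 99.3 and 98.3 CPM in the heterozygote. All of the first set lay above all of the second, with a log2 fold of 0.52 ± 0.11 (SE) and a DESeq2 adjusted p of 0.0144. The small aquaporin gene sbip2a (GRMZM2G175038) averaged 26.1 ± 1.96 CPM in P1-ww714 and 18.2 ± 1.74 CPM in the heterozygote (SD, n = 3 each), a log2 fold of 0.52 ± 0.12 (SE) without overlap.

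The transcription and chromatin regulators of the segment covered a narrow range. The log2 folds were 0.36 ± 0.10 for GLK17 (GRMZM2G006477), a Golden2-like factor, 0.35 ± 0.11 for bZIP52 (GRMZM2G174284), a basic leucine zipper factor, and 0.41 ± 0.13 for mez3 (GRMZM2G043484), a Polycomb histone methyltransferase of the Enhancer of zeste type (SE). In each of these 3 the libraries of the genotypes did not overlap. GLK17 had 122.0, 126.3 and 118.2 CPM in P1-ww714, against 96.3, 88.6 and 100.5 CPM in the heterozygote. The mez3 libraries were closer, with 41.8, 38.3 and 35.1 CPM in P1-ww714 and 32.6, 24.8 and 29.7 CPM in the heterozygote.

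Genes of tetrapyrrole synthesis in the segment were less certain. The gene les22 (GRMZM2G044074) encodes uroporphyrinogen decarboxylase of the haem and chlorophyll pathway. It had 274.3, 402.8 and 394.6 CPM in P1-ww714, against 253.1, 332.9 and 285.7 CPM in the heterozygote, and P1-ww714 replicate 1 lay among the heterozygote libraries. DVR (GRMZM2G063048), the divinyl reductase of chlorophyll synthesis, had 26.7, 31.3 and 41.6 CPM in P1-ww714 and 27.1, 27.9 and 24.1 CPM in the heterozygote, again with overlap. Their log2 folds, 0.30 for les22 and 0.33 for DVR, had intervals that reach below 0. The same held for rps21b (GRMZM2G134109), a ribosomal protein gene, at 0.51 with an interval of -0.09 to 1.10, and for SOL (GRMZM2G075262) at 0.41 with an interval of -0.23 to 1.05. Of the remaining named genes, ZBP14 (GRMZM2G018728), which encodes a histidine triad protein, was at 0.47, nad1 (GRMZM2G018941) at 0.33 and CYP714B3 (GRMZM2G106408), a cytochrome P450, at 0.38 on the log2 scale, each without overlap between the genotypes.

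**Figure D3:**
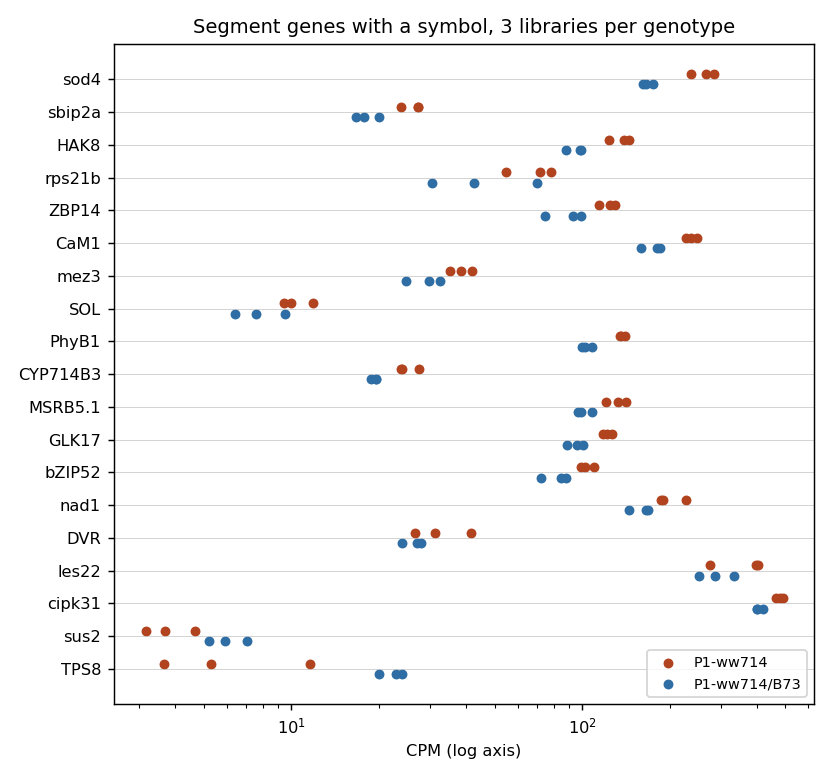
CPM on a log axis (x axis) of the 19 segment genes with a symbol (y axis, ordered by log2 fold from the top), with 3 P1-ww714 libraries in red above 3 P1-ww714/B73 libraries in blue in each row. For 17 genes the red points lie mostly to the right, by similar distances on the log axis, and for sus2 and TPS8 at the bottom they lie to the left.

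Intervals wholly above the copy ratio belonged to genes without a symbol. GRMZM5G835810 had 41.9, 46.7 and 44.4 CPM in P1-ww714 and 27.0, 26.7 and 30.3 CPM in the heterozygote. Its log2 fold of 0.66 had an interval of 0.44 to 0.89, just above 0.42, and it was the segment gene of lowest p (unadjusted edgeR p 5.63e-05). GRMZM2G308666 and GRMZM2G140915, the others with intervals above 0.42, had larger log2 folds of 1.10 and 1.01. Means of GRMZM2G308666 were 33.2 CPM in P1-ww714, 15.5 CPM in the heterozygote and 1.42 CPM in B73. Those of GRMZM2G140915 were 67.5, 33.4 and 10.6 CPM in the same order. All 3 genes were picked out after their values were seen. Of the other higher genes of lowest p, sod4 was at 0.65 as given above. GRMZM2G031825 averaged 157.8 ± 2.94 CPM in P1-ww714 and 110.7 ± 6.02 CPM in the heterozygote (SD, n = 3 each), a log2 fold of 0.51, and GRMZM2G013639 and GRMZM2G115921 were at 0.49 and 0.48.

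A few genes inside the segment went the opposite way. TPS8 (GRMZM2G038153) had 11.6, 3.67 and 5.32 CPM in P1-ww714, against 23.0, 24.1 and 20.1 CPM in the heterozygote. B73 had 41.7, 41.5 and 34.6 CPM, so the level was lowest in the genotype with the most copies. Its log2 fold was -1.69 ± 0.31 (SE), with a DESeq2 adjusted p of 0.000342. It was not called by edgeR with all libraries but had an edgeR adjusted p of 0.00721 without P1-ww714 replicate 1, the highest of its group, where the log2 fold was -2.30.

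The sucrose synthase gene sus2 (GRMZM2G318780) had 4.66, 3.16 and 3.68 CPM in P1-ww714 and 7.03, 5.22 and 5.91 CPM in the heterozygote, a log2 fold of -0.65 ± 0.20 (SE). B73 had 11.6, 9.83 and 10.4 CPM. GRMZM2G329040 had 87.5, 89.3 and 95.8 CPM in P1-ww714 and 127.4, 137.7 and 134.3 CPM in the heterozygote, a log2 fold of -0.55 with an interval of -0.84 to -0.27. In both genes every P1-ww714 library was below every heterozygote library. The fourth gene with an interval below 0 was GRMZM2G073755, at -0.41, where the libraries overlapped. GRMZM2G128644, at -0.91, was near the detection limit, with 0.574, 0.427 and 0.722 CPM in P1-ww714 and 1.53, 1.27 and 0.415 CPM in the heterozygote.

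Outside the segment, the 300 tested genes that precede it on the p1 side differed in direction from the 300 that follow it. Of the preceding genes 31 (10.3%) were lower with an unadjusted p under 0.05, against 1.28% of all tested genes, and 6 (2.0%) were higher. Their median log2 fold was -0.04. Of the following genes 5 (1.67%) were lower and 7 (2.33%) higher, against 1.28% and 1.74% of all tested genes, with a median of 0.01. DESeq2 called 4 of the preceding genes lower, and 1 of the following genes higher. Over all tested genes it called 0.0532% lower and 0.0666% higher. This flank was examined because an excess of lower genes in it was already known from these libraries. The difference between the flanks was not tested.

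**Figure D4:**
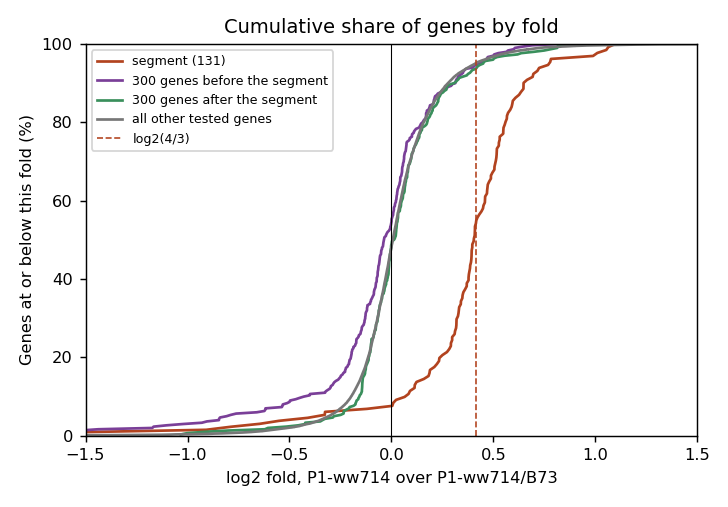
Cumulative share of genes (y axis, percent) at or below each log2 fold of P1-ww714 over P1-ww714/B73 (x axis, drawn from -1.5 to 1.5) for the 131 segment genes, the 300 tested genes before the segment, the 300 after it and all other tested genes. The segment curve is shifted to the right, crossing 50% near 0.40, and the curve of the preceding genes leaves the others on the lower side, while the following genes track all others.

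The lower genes of this flank lay between 2 and 259 tested genes from the start of the segment. The gene of lowest p in the whole comparison was among them. GRMZM2G443655, to which the reference table gives the symbol Txndc5 (a protein disulfide isomerase-like gene), had 165, 130 and 179 counts in P1-ww714, against 219, 315 and 220 counts in the heterozygote. Scaled means were 11.1 ± 0.615 CPM in P1-ww714 and 20.9 ± 1.70 CPM in the heterozygote (SD, n = 3 each). B73 had 26.3, 33.5 and 31.4 CPM. The scaled groups were tight and did not overlap, with a log2 fold of -0.91 ± 0.13 (SE), an edgeR adjusted p of 0.228 and a DESeq2 adjusted p of 0.000187. A second identifier of the same reference gene, GRMZM2G073628, was at -0.24. How reads were divided between these 2 is not known. GRMZM2G052479 had 54.0, 56.0 and 73.1 CPM in P1-ww714 and 126.9, 112.8 and 109.2 CPM in the heterozygote, a log2 fold of -0.93.

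In several flank genes P1-ww714 replicate 3 stood between its own group and the heterozygote. GLN6 (GRMZM2G050514), a glutamine synthetase gene of nitrogen assimilation, had 14.9, 15.7 and 42.8 CPM in P1-ww714 and 45.2, 67.7 and 52.9 CPM in the heterozygote. GRMZM2G149624 had 21, 16 and 128 counts in P1-ww714, against 252, 596 and 339 counts in the heterozygote. GRMZM2G311165 had 4, 2 and 183 counts in P1-ww714, against 265, 679 and 469 counts in the heterozygote. In each of the 3, replicates 1 and 2 of P1-ww714 were alike and replicate 3 was the high one.

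With all libraries none of these 3 was called by edgeR, at log2 folds of -1.17 for GLN6, -3.07 for GRMZM2G149624 and -3.16 for GRMZM2G311165. Without P1-ww714 replicate 3 the edgeR adjusted p was 0.0166 for GLN6, 0.00666 for GRMZM2G149624 and 0.00376 for GRMZM2G311165, at log2 folds of -1.86, -4.56 and -7.40. A gene not placed on the reference, GRMZM2G413835, was called there too, with 0, 0 and 36 counts in P1-ww714 and 45, 120 and 92 counts in the heterozygote. GRMZM2G311165 and GRMZM2G413835 were chosen for mention after their values had been seen. Without replicate 3 they passed the expression filter only through the heterozygote and B73 libraries. The segment itself was as high in replicate 3 (1.01% of CPM) as in the other two P1-ww714 libraries. Why replicate 3 stood apart at these genes was not tested.

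Other named genes of this flank were PYL7 (GRMZM2G144224), of the abscisic acid receptor family, with 3.25, 4.96 and 7.16 CPM in P1-ww714 and 9.65, 9.16 and 8.71 CPM in the heterozygote, and HB45 (GRMZM2G126808), a homeobox gene. Their log2 folds were -0.84 for PYL7 and -0.47 for HB45, without overlap. The gene ts2 (GRMZM2G455809), known for pistil abortion in the tassel, went the other way at 0.81, with 5.48, 5.47 and 10.1 CPM in P1-ww714 and 5.05, 4.26 and 2.59 CPM in the heterozygote.

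A handful of genes that could not be placed on the reference were nearly silent in P1-ww714. AC197387.3_FG004 had 7, 0 and 0 counts in P1-ww714, against 50, 63 and 28 counts in the heterozygote. Its log2 fold was -4.48 ± 0.66 (SE), with a DESeq2 adjusted p of 1.19e-07, and without P1-ww714 replicate 1 its edgeR adjusted p was 0.0437. GRMZM2G317033 had 0, 0 and 0 counts in P1-ww714, against 18, 23 and 7 counts in the heterozygote, which is at least 18.5-fold lower with a floor of 3 counts over the P1-ww714 group. It was the 1 gene that limma voom called. Both AC197387.3_FG004 and GRMZM2G317033 passed the expression filter only through the heterozygote and B73 libraries. They were also picked for their low p, so these calls are a description. In the opposite direction GRMZM2G394212, also unplaced, had 66.4, 67.3 and 73.4 CPM in P1-ww714 and 42.8, 44.7 and 48.4 CPM in the heterozygote, a log2 fold of 0.61. GRMZM2G121871 was at 0.51. Both were among the 4 unplaced genes that DESeq2 called higher, beside 6 that it called lower, of 6838 unplaced genes tested. Over all tested genes DESeq2 called 0.0666% higher and 0.0532% lower.

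On chromosomes 2 to 10, 142 of 13205 tested genes (1.08%) were higher and 108 (0.818%) lower with an unadjusted p under 0.05. The share outside the whole segment was 1.38% higher and 1.27% lower. DESeq2 called 1 gene on these 9 chromosomes, GRMZM2G137535 on chromosome 6, which is named here after its values were seen. It had 6.95, 4.70 and 3.48 CPM in P1-ww714, against 38.1, 17.7 and 9.96 CPM in the heterozygote. The heterozygote libraries were widely spread but all lay above those of P1-ww714. Its log2 fold was -2.11 ± 0.43 (SE), with a DESeq2 adjusted p of 0.000358 and an edgeR adjusted p of 0.533. Of the 100 genes of lowest p in the comparison, 39 belonged to the segment, 37 of them higher and 2 lower. The segment holds 131 of the 22544 tested genes, and its bounds used the P1-ww714 libraries.

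Elsewhere, genes with a symbol, separated libraries and the lowest p were picked, 10 higher and 10 lower, flanks included. Myb14 (GRMZM2G089244), a MYB gene on chromosome 4, had 5.23, 5.98 and 6.76 CPM in P1-ww714 and 2.98, 3.56 and 4.36 CPM in the heterozygote, a log2 fold of 0.73 ± 0.20 (SE). The anthocyanin gene a2 (GRMZM2G345717), which encodes anthocyanidin synthase, had 11.5, 14.2 and 19.1 CPM in P1-ww714 and 9.02, 9.48 and 8.51 CPM in the heterozygote, also 0.73. TIFY28 (GRMZM2G036351), of the family of jasmonate signalling repressors, had 8.35, 13.9 and 15.4 CPM in P1-ww714 and 8.12, 7.06 and 5.71 CPM in the heterozygote, a log2 fold of 0.85. In a2 and TIFY28 the lowest P1-ww714 library was close to the highest heterozygote library. The glutathione transferase gene GST39 (GRMZM2G028821), among the 300 genes after the segment, was at 0.82. The potassium transporter gene kup1 (GRMZM2G084779) was at 0.72, sfp2 (GRMZM2G080178) at 0.67, HB127 (GRMZM2G119999) at 0.62, bHLH141 (GRMZM2G080168) at 0.51 and PHD2 (GRMZM2G119357) at 0.30. B73 means lay between those of P1-ww714 and the heterozygote for Myb14, a2, kup1, sfp2, bHLH141 and PHD2. For kup1 the means were 11.6 CPM in P1-ww714, 6.97 CPM in the heterozygote and 9.62 CPM in B73. For TIFY28, GST39 and HB127 the B73 mean was the lowest.

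The lower genes picked in this way off chromosome 1 had log2 folds of -0.56 to -0.32. The transcription factor gene bZip112 (GRMZM2G103647) had 37.8, 42.5 and 39.7 CPM in P1-ww714 and 63.4, 53.3 and 46.6 CPM in the heterozygote, a log2 fold of -0.45 ± 0.12 (SE). TPS4 (GRMZM2G527891) had 75.4, 75.9 and 57.9 CPM in P1-ww714 and 125.8, 101.6 and 81.1 CPM in the heterozygote, at -0.56. Also picked, where separated libraries were a condition, were aprl4 (GRMZM2G159535) at -0.34 and opr6 (GRMZM2G068947), an oxophytodienoate reductase, at -0.35. CNX5 (GRMZM2G160842), of molybdenum cofactor synthesis, was at -0.39 and TIFY18 (GRMZM2G065896) at -0.32. B73 means lay between those of P1-ww714 and the heterozygote for opr6, CNX5 and TIFY18, and above both for bZip112, TPS4 and aprl4. None of these named genes outside chromosome 1 was called by edgeR or DESeq2.

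Gene groups were read from 22 lists matched on symbols, and several list medians moved with single libraries, whose part in these values was not tested beyond leaving them out. All 11 histone genes, which serve chromatin assembly in dividing cells, had folds above 0, with a median of 0.29, none with an unadjusted p under 0.05. Their median deviation from the mean of the 6 libraries was 0.49, -0.05 and 0.33 in P1-ww714 and -1.57, 0.57 and 0.01 in the heterozygote. Heterozygote replicate 1 was the low one, and without it the median was 0.07, with 6 of 11 above 0. The 25 cell division genes showed the same library, at -0.89, and their median was 0.10 with it and -0.10 without it, 5 of 25 above 0. For example, the ribonucleotide reductase gene RNRS3 (GRMZM2G323679) had 17.3, 11.8 and 15.8 CPM in P1-ww714 and 1.71, 13.9 and 11.1 CPM in the heterozygote.

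Of 24 heat shock genes, which encode chaperones and their regulators, 18 were above 0 with a median of 0.18 and none had an unadjusted p under 0.05. HSP90-1 (GRMZM2G024668) had 14.2, 22.2 and 43.3 CPM in P1-ww714 and 6.04, 14.2 and 19.4 CPM in the heterozygote. P1-ww714 replicate 3 was the highest library of this list, and heterozygote replicate 1 the lowest. Without both, 11 of 24 were above 0 and the median was -0.02. The 8 benzoxazinoid genes, which make the defence compound DIMBOA, all had folds above 0 with a median of 0.31. Only bx2 (GRMZM2G085661) had an unadjusted edgeR p under 0.05, at 0.0415 (12.5% of the list, against 1.74% of all tested genes). It had 210.4, 210.0 and 301.9 CPM in P1-ww714 and 150.7, 221.4 and 176.2 CPM in the heterozygote, so the groups overlapped. Without the same 2 libraries 7 of 8 were above 0 at a median of 0.07. Of 12 flavonoid and anthocyanin genes 11 were above 0 at a median of 0.14, with P1-ww714 replicate 3 highest at 0.43, and without both libraries 5 of 12 were. Without P1-ww714 replicate 3 alone the median was -0.02. In this list only a2 was higher with unadjusted p under 0.05 (8.33%, against 1.74% of all tested genes).

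Glutathione transferase and defence lists had medians above 0 also without those libraries. They were not alone in this, since the jasmonate median was then 0.18 and the cell wall growth median 0.06. Of 30 glutathione transferases, which conjugate foreign and reactive compounds, 24 were above 0 with a median of 0.17, which was 0.23 without both libraries. GST39 and gst6 (GRMZM2G129357) were higher with unadjusted p under 0.05, which is 6.67% of the list against 1.74% of all tested genes. Here heterozygote replicate 3 was the low library, at -0.42, and without it the median was 0.09. Of 26 defence genes (chitinases, pathogenesis-related proteins, proteinase inhibitors and WRKY factors) 19 were above 0 with a median of 0.16. Of these, 3 (11.5%, against the same 1.74%) were higher with unadjusted p under 0.05, namely WRKY72, chitinase2 and WRKY109. The libraries overlapped in WRKY72 and chitinase2, and WRKY72 had only 24, 6 and 19 counts in P1-ww714 and 4, 7 and 7 in the heterozygote. Deviations of the defence list were 0.12, 0.08 and 0.08 in P1-ww714 and 0.04, -0.01 and -0.36 in the heterozygote, so these list values did not overlap. Without heterozygote replicate 3 the list median was 0.09. Of 41 jasmonate genes 25 were above 0 with a median of 0.06, which was 0.22 without heterozygote replicate 1 and -0.02 without heterozygote replicate 3. Without P1-ww714 replicate 3 and heterozygote replicate 1 together 34 of the 41 were above 0.

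**Figure D5:**
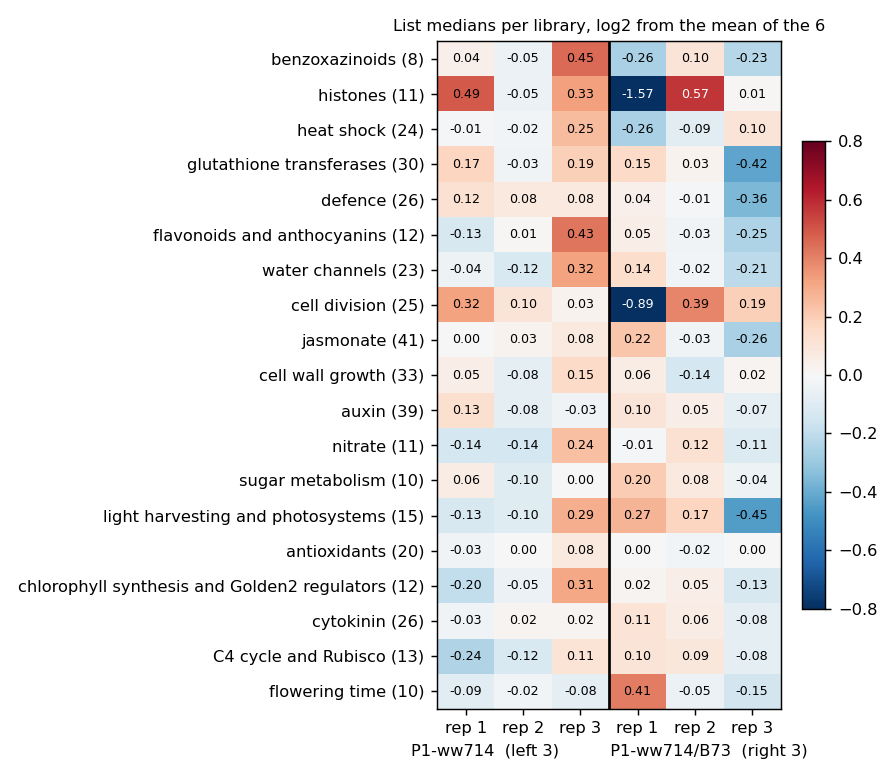
Median log2 difference of each gene list from the mean of the 6 libraries (colour and printed values), with lists of at least 5 tested genes as rows (number of genes in brackets, ordered by the log2 fold between genotypes), 3 P1-ww714 libraries on the left and 3 P1-ww714/B73 libraries on the right. The lowest printed value is heterozygote replicate 1 for histones at -1.57, which lies beyond the end of the colour scale. The defence list is the one in which all 3 cells on the left exceed all 3 on the right.

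Of 13 genes of the C4 cycle and Rubisco 4 were above 0, with a median of -0.08. The 3 mesophyll markers had a median of -0.14 and the 4 bundle sheath markers -0.19, with all of them below 0 and none with an unadjusted p under 0.05. With 1 library left out these medians ran from -0.22 to 0.00 for the C4 list, from -0.22 to -0.02 for mesophyll markers and from -0.30 to -0.06 for bundle sheath markers. Each was lowest without P1-ww714 replicate 3. For pdk1 (GRMZM2G306345), pyruvate phosphate dikinase, the means were 18386.2 ± 1230 CPM in P1-ww714 and 20382.1 ± 2780 CPM in the heterozygote (SD, n = 3 each), which overlap. PPCK4 (GRMZM2G049541), a kinase of phosphoenolpyruvate carboxylase, was the C4 list's gene of lowest p (unadjusted edgeR p 0.0399), with a log2 fold of 0.53. It was the only gene of that list under 0.05 (7.69%, against 1.74% of all tested genes). The 15 genes of light harvesting and the photosystems had 6 above 0, but 12 (median 0.17) without heterozygote replicate 1 and 2 (median -0.15) without P1-ww714 replicate 3. The 12 genes of chlorophyll synthesis and Golden2 regulators had 6 above 0, and the 3 that belong to the segment (GLK17, les22 and DVR) were among these. Without them the median was -0.10.

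Of 10 flowering time genes 3 were above 0 at a median of -0.27, and COL5 (GRMZM2G075562), a CONSTANS-like gene, had 26.3, 26.5 and 12.5 CPM in P1-ww714 and 60.2, 37.3 and 22.7 CPM in the heterozygote. Without heterozygote replicate 1, where this list was highest, the median was -0.09. Water channels were above 0 for 18 of 23 genes (median 0.11), cell wall growth genes for 25 of 33 (median 0.05), nitrate genes for 7 of 11 (median 0.01) and auxin genes for 21 of 39 (median 0.02). Without P1-ww714 replicate 3 the water channel list had 7 genes above 0 (median -0.07) and the cell wall list 16 (median -0.01). In the cell wall list 3 genes (9.09%, against 1.74% of all tested genes) were higher with unadjusted p under 0.05. That list also had 1 such lower gene (3.03%, against 1.28%). Antioxidant genes were split 10 and 10, and of these sod4 and MSRB5.1, both in the segment, had unadjusted p under 0.05. Sugar metabolism genes were split 5 and 5. Cytokinin genes were above 0 for 9 of 26 (median -0.04) and circadian clock genes for 1 of 3 (median -0.25). With 1 library left out the medians ran from -0.11 to 0.07 for nitrate, from -0.05 to 0.03 for auxin, from -0.12 to 0.03 for cytokinin, from -0.13 to 0.04 for sugar metabolism and from -0.39 to -0.06 for clock genes. All tested genes had a median of 0.01, with 52.0% above 0.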

How the data were processed

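The authors deposited raw whole-number counts per gene for 39656 identifiers, 1 column per library. TopHat and HTSeq were used, without versions, per the submitters' processing notes. Build, annotation, strand setting and treatment of shared reads were not given in the sources used here. Genes that overlap or have near-identical copies therefore have uncertain counts. Names, chromosomes and gene order came from a RefSeq gene table of Zm-B73-REFERENCE-NAM-5.0, which matched 18775 identifiers (47.3%, with 82.2% of counts). No coordinates are given.

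Genes were kept by filterByExpr (minimum count 10), scaled by TMM and tested with the edgeR 4.0.16 quasi-likelihood F test on all 9 libraries in 1 fit (R 4.3.3), with Benjamini-Hochberg adjustment at 0.05. DESeq2 1.42.0 and limma 3.58.1 voom were alternatives, beside other scalings, filters, the replicate number as a block and libraries left out. CPM were scaled by TMM, except in the shares of the segment. Values per library in the lists are log2 of CPM plus 0.5. The floor covers counting error only. Chi-square per gene between replicates ran from 6.35 to 18.46, so no pair of replicates agreed within sampling noise.

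The segment is the run with the highest sum of log2 fold minus 0.5, folds limited to -1 to 2. Named genes were p1, the 20 best expressed segment genes with a symbol, the 5 higher and 5 lower segment genes of lowest p, up to 10 higher and 10 lower elsewhere with a symbol, no overlap and a mean log2 CPM over 1, 2 each without a symbol, those called by DESeq2 that have a symbol and up to 2 each without, and up to 4 per list. Members and lists were chosen with earlier results of these data known. Lists were matched on symbols, which can take in other genes, and false matches were removed before folds were computed. The procedure was tested on simulated counts that held no shifts of whole gene lists in single libraries. Such counts cannot show how it behaves under the shifts seen here.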

Additional observations from a re-analysis of the deposited data

How the results depend on the processing

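No gene passed with RLE or TMM scaling without the segment, no filter, average log2 CPM of at least 3, only the groups compared, or a threshold of 0.01. The calls were 27 with DESeq2 (15 higher, 12 lower), 1 with voom weights, 0 to 4 when 1 library was left out, and 4, all lower, without P1-ww714 replicate 3 and heterozygote replicate 1 together. The 680 genes with unadjusted p under 0.05 became 368 at average log2 CPM of at least 3, where fewer genes (15105) were tested, and 548 to 861 with 1 library left out. The segment median of 0.41 ran from 0.37 to 0.42 with 1 library left out and was 0.36 without both libraries. Segment genes higher with unadjusted p under 0.05 (83) ran from 72 to 85 and lower genes of the preceding flank (31) from 22 to 31 with 1 library left out. They were 91 and 34 with the replicate block, and 71 and 26 without both libraries. Both counts under alternatives were added after the data were seen. With the replicate number as a block, 0 genes passed and 817 had unadjusted p under 0.05 (416 higher, 401 lower). Same-numbered libraries had deviation correlations of -0.03, -0.11 and -0.22, and differently numbered ones ran from -0.14 to 0.20. So few pairs cannot decide whether the numbers pair the samples, and the sources state no pairing. Of 2203 values of 124 named genes under alternatives 17 had the other sign (10 genes), and of 396 list medians 19 did. A gene's standard error of about 0.15 in the segment limits what these 3 libraries a group can separate.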
